A study of Mus musculus with 9 samples.

Results

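The 9 genes described here are those by which resting brain microglia are commonly told from other macrophages: the surface receptors and proteins Cx3cr1, P2ry12, Gpr34, Tmem119 and Siglech, the secreted proteins Olfml3 and Fcrls, and the transcription factors Sall1 and Mef2c. They were taken by symbol, as every array probe that measures mRNA and carries one of these gene names, and they make up 9 of the 34650 gene names on the array and 14 of its 55681 probes. Of the 9, 8 had a probe well above background on at least 1 array and were tested among 24101 genes, and Sall1 had none. Microglia are the resident macrophages of the brain parenchyma. In the healthy brain, TGF-beta and the CSF1 receptor ligands CSF1 and IL-34 maintain them, and factors such as PU.1, SMAD, SALL1 and MEF2 keep on a set of surface sensors and secreted proteins that is called the homeostatic signature. The signature is known to fade when microglia are taken into culture and when they respond to injury or to dying cells.

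The study asked how engulfing apoptotic cells changes the transcriptome of microglia. Control microglia, taken at 0 h with no stimulus, were compared with phagocytic microglia that had been fed for 3 h (called Ph3h) or for 24 h (called Ph24h). Each group had 3 arrays and, per the methods, 3 independent experiments. All 3 groups were primary microglia from the brains of fms-EGFP mouse pups of postnatal day 0 to 1, in which the macrophage promoter fms (Csf1r) drives a green reporter. Cells of 2 brains per flask were grown for about 14 days with 5 ng/ml GM-CSF, shaken off and left to settle for at least 24 h. The Ph3h and Ph24h cultures received about 1 SH-SY5Y cell for each microglia. SH-SY5Y is a human neuroblastoma line, here labelled with the membrane dye CM-DiI at 5 µM and driven into apoptosis with staurosporine at 3 µM for 4 h. No unfed culture of 3 h or 24 h was analysed here, so feeding and time in culture cannot be told apart. The cells were postnatal, cultured and grown in GM-CSF, and carried no measured reference from microglia in the brain. Both comparisons with control use the same 3 control arrays and are therefore not independent of each other.

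Levels are given as log2 of the scanner's processed signal relative to the 75th percentile of the same array, so that 0 is the 75th percentile and 1 unit is a 2-fold difference. That percentile lay between 355 and 472 intensity units on the control arrays, between 185 and 211 on Ph3h and between 156 and 161 on Ph24h. The culture expressed the general markers of macrophages: all 18 on the list fixed for them were tested, and none was below background on all arrays of a group. Their summed level was 3498 to 3751 times the 75th percentile on control arrays. It was 5081 to 5314 times on Ph3h arrays and 4126 to 4341 times on Ph24h arrays. Among border macrophage markers, Lyve1, Cd163, F13a1 and Ccr2 were not well above background on any array. The other 8 on that list were tested, and Ms4a7 was the brightest of them, at a mean log2 level of 9.17 in control. Markers of neurons and SH-SY5Y cells had a summed level of 1.52 to 1.70 before feeding. After feeding this sum was 1496 to 1627 at 3 h and 2257 to 2605 at 24 h. Most of it came from Vgf, at mean log2 levels of -2.49 in control, 10.4 in Ph3h and 11.1 in Ph24h. Of the 17 tested, 13 were higher and 1 lower at 3 h at an adjusted p below 0.05 (all genes 27.9% and 25.9%). At 24 h 14 were higher and 0 lower (all genes 29.9% and 33.2%). The probes of such markers thus read signal in the fed samples, and its part in the values below was not tested. In these bulk samples, fewer cells that express a gene and less of its RNA per cell cannot be told apart.

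Each gene was read by 60-base probes, whose positions are those in the array files on build mm9, and whose exon or UTR annotation was not used here. Cx3cr1 had 3 probes on the minus strand at chr9:119957811-119957870, chr9:119957806-119957865 and chr9:119959018-119959077, of which the first 2 share 55 bases. Olfml3 had 2 at chr3:103539590-103539649 and chr3:103540414-103540473, both on the minus strand. The single probes of P2ry12 (chr3:59020598-59020657), Fcrls (chr3:87056422-87056481), Tmem119 (chr5:114243962-114244021) and Sall1 (chr8:91551278-91551337) also lie on the minus strand, and that of Gpr34 (chrX:13217863-13217922) on the plus strand. The Mef2c probe (plus strand) spans 2238 genomic bases at chr13:83772788-83775025 and so joins separate pieces of sequence. Siglech had 3 probes on the plus strand of chromosome 7, at chr7:63034088-63034147, chr7:63028608-63028667 and chr7:63033826-63033885 in the order of their level, and they gave such different levels that bases 11 to 40 of each are shown, with every stretch of 16 bases or more that also occurs in a probe or promoter of another gene in capitals.
Siglech probe 1: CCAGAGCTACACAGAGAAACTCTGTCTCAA
Siglech probe 2: tccagtgtgtgaacagtcttccctggtgga
Siglech probe 3: aattcccttgcagagacatcctccaaagtt
All 30 bases of the first are in capitals, and none of the other two. Probe 1 shared a 16-base stretch with 7 probes of other genes and with the promoters of 37 other genes. Across the array, 16.1% of probes shared such a stretch with a probe of another gene name. The other members' probes shared one with at most 1 probe and 2 promoters of other genes. The sequence in capitals resembles the B1 family of short interspersed repeats, which lies in many mouse transcripts. The part of other transcripts in the signal of probe 1 was not tested.

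Promoters are shown for the 4 genes whose level moved most plainly, Cx3cr1 and Olfml3, which fell at both times, and P2ry12 and Fcrls, which rose and then fell. They are RefSeq windows on GRCm38.p6 from 250 bases before to 50 bases after the gene start, and 7 of the 9 members have 1 or more in the table used here (Tmem119 and Gpr34 do not). Capitals mark matches, on either strand, to GAGGAA (the core bound by PU.1), the MEF2 consensus, CAGAC (SMAD) or TGANTCA (AP-1), none of which overlapped another in these windows.
Cx3cr1, chr9:120068247-120068546, minus strand: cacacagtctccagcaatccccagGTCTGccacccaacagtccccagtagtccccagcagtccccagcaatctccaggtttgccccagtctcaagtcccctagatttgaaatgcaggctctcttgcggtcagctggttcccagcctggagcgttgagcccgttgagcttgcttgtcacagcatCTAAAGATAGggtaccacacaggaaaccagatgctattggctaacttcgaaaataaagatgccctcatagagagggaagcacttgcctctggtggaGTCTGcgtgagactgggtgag
Olfml3, chr3:103737952-103738251, minus strand: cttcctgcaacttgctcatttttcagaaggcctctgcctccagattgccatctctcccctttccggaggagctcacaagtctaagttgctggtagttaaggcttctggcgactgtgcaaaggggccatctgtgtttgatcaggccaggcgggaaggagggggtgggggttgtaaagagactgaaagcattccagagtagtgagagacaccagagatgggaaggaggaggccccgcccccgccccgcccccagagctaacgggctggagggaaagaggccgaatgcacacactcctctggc
P2ry12, chr3:59262936-59263235, minus strand: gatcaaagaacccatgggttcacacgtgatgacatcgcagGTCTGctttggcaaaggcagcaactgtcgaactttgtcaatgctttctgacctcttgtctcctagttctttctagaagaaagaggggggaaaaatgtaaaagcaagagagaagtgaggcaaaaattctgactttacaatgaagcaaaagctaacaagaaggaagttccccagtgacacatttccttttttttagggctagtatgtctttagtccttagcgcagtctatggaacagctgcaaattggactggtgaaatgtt
Fcrls, chr3:87263475-87263774, minus strand: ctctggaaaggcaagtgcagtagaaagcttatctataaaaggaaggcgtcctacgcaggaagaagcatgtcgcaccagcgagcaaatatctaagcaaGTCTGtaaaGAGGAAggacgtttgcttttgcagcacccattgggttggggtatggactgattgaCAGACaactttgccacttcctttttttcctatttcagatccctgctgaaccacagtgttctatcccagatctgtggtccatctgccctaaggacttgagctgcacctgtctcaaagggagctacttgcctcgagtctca
The Cx3cr1 window held the MEF2 letters at base 184 and the SMAD letters at bases 25 and 280. The Fcrls window held the PU.1 core once and the SMAD letters at bases 98 and 162, P2ry12 held the SMAD letters at base 41, and Olfml3 held none of the 4. Over the 7 members, which have 11 windows, 6 held the SMAD letters, 3 the PU.1 core, 1 the MEF2 letters and 1 the AP-1 letters in at least 1 window. Among all 32851 promoter windows of the table, 49.6% held the SMAD letters, 28.3% the PU.1 core, 3.69% the MEF2 letters and 7.81% the AP-1 letters. The members are counted by gene and these shares by window, so they cannot be compared directly. The SMAD letters stood in windows of genes that moved in opposite directions at 3 h, and a match is a description of the sequence and not a binding site.

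At 3 h, 4 of the 8 tested genes were called lower than control (Cx3cr1, Tmem119, Gpr34 and Olfml3), 2 higher (P2ry12 and Fcrls) and 2 were not called (Siglech and Mef2c). Over all genes tested, 25.9% were called lower and 27.9% higher at an adjusted p below 0.05. At 24 h, 6 were called lower (Cx3cr1, Tmem119, P2ry12, Gpr34, Olfml3 and Fcrls), 0 higher and 2 not (Siglech and Mef2c), against 33.2% lower and 29.9% higher over all genes. Calls over all genes shifted with the scaling, from 6247 lower and 6724 higher to 8528 and 4320 at 3 h and from 7999 and 7207 to 12261 and 3840 at 24 h when the median took the place of the 75th percentile, while the members called at 3 h and 24 h kept their direction. The same 6 genes were those whose 3 fed arrays all lay on one side of the 3 control arrays at each time. Over all genes, all Ph3h arrays lay below control for 30.5% and above for 35.2%, and all Ph24h arrays below for 36.6% and above for 34.7%. The median log2 fold change of the 8 genes was -0.48 at 3 h and -1.05 at 24 h, and that of all genes 0.07 and 0.01. With genes below background in a group set to their bound, the members' medians were -0.06 and -0.50. The plot of levels by array shows 4 different courses. Cx3cr1 and Olfml3 fell at 3 h and further at 24 h, and Tmem119 fell and partly returned. P2ry12 and Fcrls rose and then fell, Fcrls to below control and P2ry12 to background. Siglech and Mef2c had no called change, and Gpr34 was at background after feeding.

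**Figure D1:**
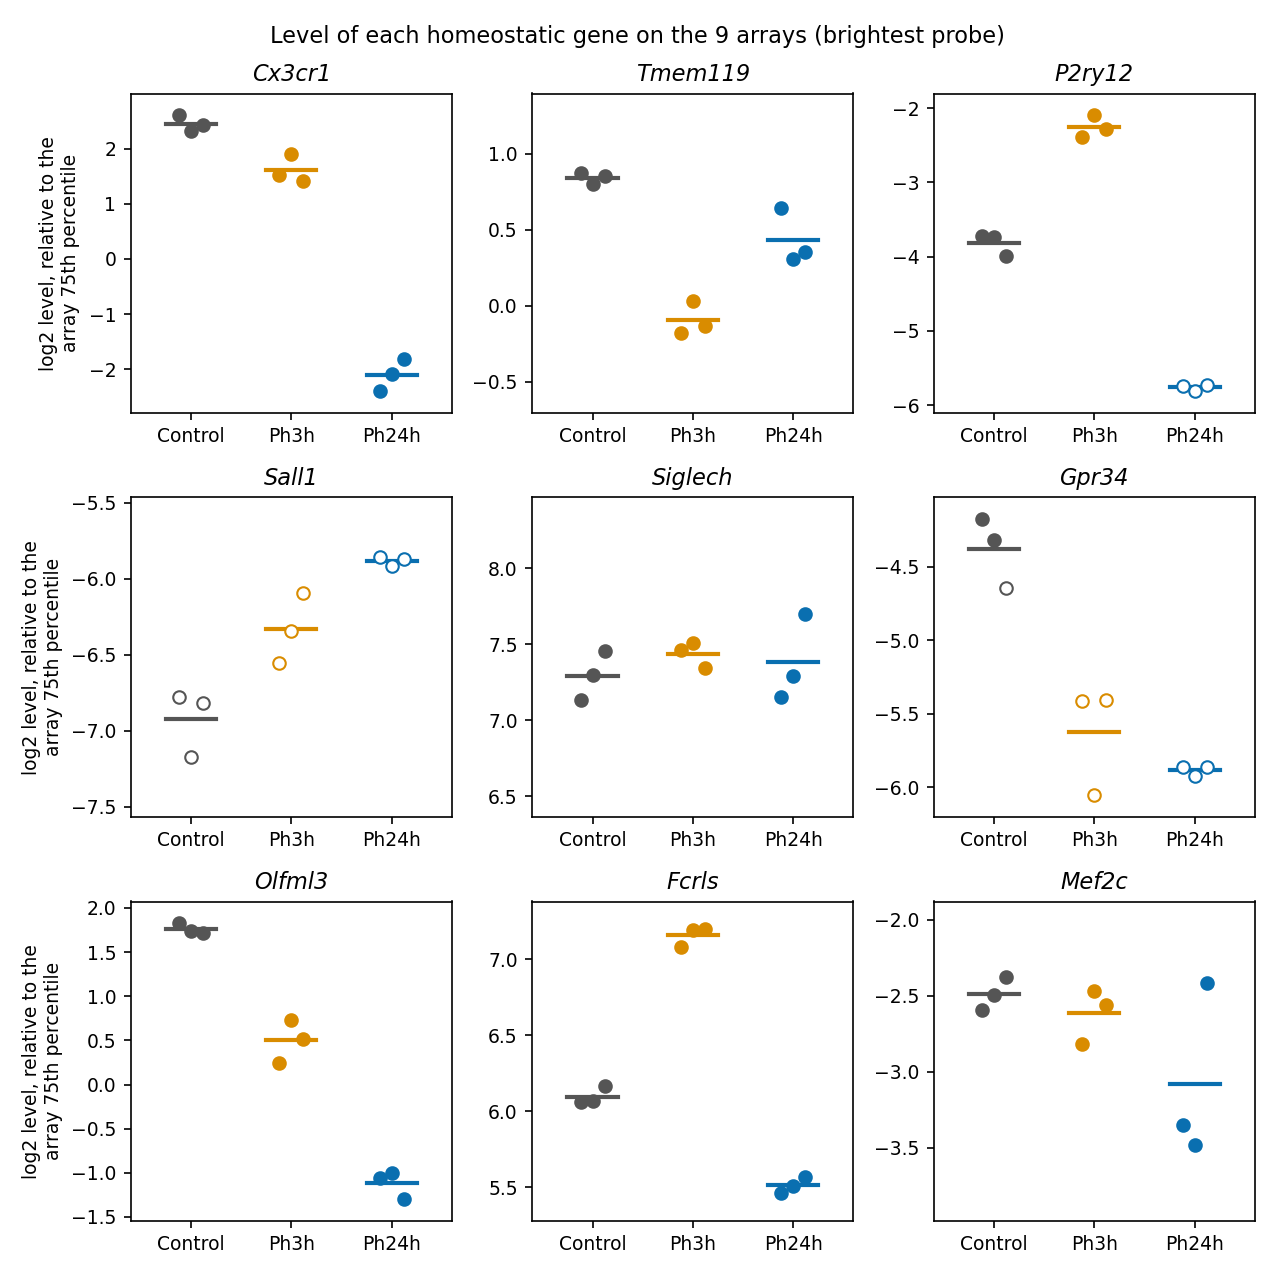
Levels of the 9 genes on each array by their brightest probe, as log2 relative to the array's 75th percentile; points are arrays (filled where well above background, open where not), bars are means of 3, and each panel has its own axis. Cx3cr1 falls from a mean of 2.45 to -2.10, Fcrls rises to 7.16 and falls to 5.51, and Sall1 has open points throughout.

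Cx3cr1, the receptor for the neuronal chemokine fractalkine, showed the largest decrease at 24 h of the members measured in both groups. Its level was 2.61, 2.32 and 2.42 in control, 1.53, 1.89 and 1.41 in Ph3h, and -2.40, -2.09 and -1.82 in Ph24h. The 3 groups did not overlap, and the step from 3 h to 24 h was far larger than the spread within any group. Against control the level was 1.79-fold lower at 3 h (log2 fold change -0.84, SE 0.18, adjusted p = 0.00574) and 23.5-fold lower at 24 h (-4.56, SE 0.18, adjusted p = 1.06e-06). At 24 h all 3 arrays were still well above background with this probe, at a mean intensity of 37.4 against 2286 in control. Probe 2, which overlaps probe 1, gave log2 fold changes of -0.75 (SE 0.23) at 3 h and -4.68 (SE 0.23) at 24 h. Probe 3, which lies apart from both, gave -1.25 (SE 0.24) at 3 h. None of the Ph24h arrays had probe 3 well above background, so that its change at 24 h has no measured size.

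P2ry12, the ADP receptor that steers microglial processes toward released nucleotides, was dim throughout and moved both ways. It measured -3.72, -3.73 and -3.99 in control, -2.39, -2.09 and -2.28 in Ph3h and -5.74, -5.81 and -5.72 in Ph24h. Every Ph3h array lay above every control array, and every Ph24h array below. The rise at 3 h was 2.95-fold (log2 fold change 1.56, SE 0.10, adjusted p = 1.67e-05). Over the alternatives listed under processing, apart from no scaling and macrophage-marker scaling, that log2 fold change ran from 0.43 to 1.63. Its unscaled intensity also rose, from a mean of 29.8 to 41.5, while the median of all genes fell by 0.99 on the unscaled log2 scale. At 24 h it was called lower (log2 fold change -1.94, SE 0.10, adjusted p = 4.33e-06), but there no array had a signal well above background, and all 3 values were the surrogate that the scanner software writes in place of such a signal. No bound on that fold could be given, because the dimmest signal counted as well above background on the Ph24h arrays lay above the control level. From 3 h to 24 h the decrease was at least 2.86-fold (adjusted p = 9.40e-07).

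Gpr34, a receptor for lysophosphatidylserine, lay at the edge of detection. It measured -4.18, -4.32 and -4.65 in control, -5.41, -6.06 and -5.41 in Ph3h and -5.86, -5.92 and -5.86 in Ph24h. Only 2 control arrays and no array of a fed group were well above background, and the 3 Ph24h values were surrogates. It was called lower at 3 h (log2 fold change -1.24, SE 0.20, adjusted p = 0.00123) and at 24 h (-1.50, SE 0.20, adjusted p = 0.000370). With a filter that asks for all 3 arrays of a group, it was not tested. Neither fold has a bound above 1, and the fed groups have no order between them.

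Tmem119, a membrane protein widely used to stain microglia, fell and then partly returned. It measured 0.87, 0.80 and 0.85 in control, -0.18, 0.03 and -0.14 in Ph3h and 0.64, 0.31 and 0.35 in Ph24h. The Ph24h arrays lay between the other two groups without overlap. It was 1.92-fold lower than control at 3 h (log2 fold change -0.94, SE 0.10, adjusted p = 0.000188) and 1.33-fold lower at 24 h (-0.41, SE 0.10, adjusted p = 0.00946). At 24 h the call was lost within slide 1 alone, which holds replicates 1 and 2 of each group (-0.36, adjusted p = 0.107).

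Siglech, a sialic acid-binding lectin that signals through the adaptor DAP12, was the one surface gene with no called change by its brightest probe. This probe measured 7.14, 7.30 and 7.46 in control, 7.46, 7.51 and 7.34 in Ph3h and 7.16, 7.29 and 7.70 in Ph24h, and the 3 groups overlapped. The log2 fold change was 0.14 at 3 h (95% confidence interval -0.21 to 0.50, adjusted p = 0.456) and 0.09 at 24 h (-0.26 to 0.44, adjusted p = 0.639), and its sign turned under other scalings. With scaling to the median it was called lower at 24 h (-0.42, adjusted p = 0.0139), and with the mean over its probes it was called higher there (0.64, adjusted p = 0.0399). It is the probe whose bases shown above are all in capitals. Probe 2, with no such stretch, measured -5.25, -4.20 and -4.11 in control, -4.05, -3.41 and -4.47 in Ph3h and -3.35, -3.24 and -3.41 in Ph24h. It was well above background on 2, 1 and 3 arrays of these groups and higher than control at 24 h (log2 fold change 1.19, SE 0.36, adjusted p = 0.0234 over probes). In that fit over 34381 probes, 31.9% were called lower and 28.2% higher at 24 h, and 24.7% and 26.3% at 3 h. No array had probe 3 well above background. The 3 probes of Siglech therefore gave no single course, unlike those of Cx3cr1 and Olfml3.

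**Figure D2:**
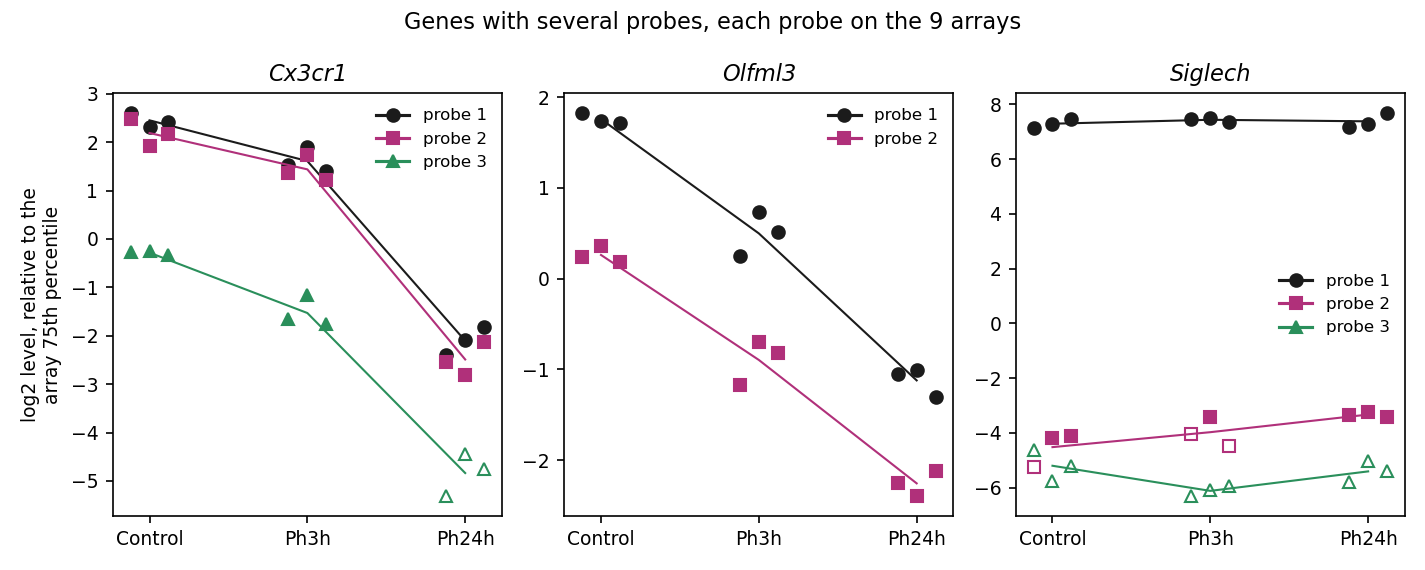
Each probe of the 3 genes with several, as log2 level relative to the array's 75th percentile on the 9 arrays; markers are arrays (open where not well above background) and lines join group means. All Cx3cr1 and Olfml3 probes lie lower at 24 h than in control (Cx3cr1 probe 3 with open markers there), while the Siglech probes are at 7.30, -4.52 and -5.20 in control and do not move together.

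Olfml3, a secreted olfactomedin-like protein of the extracellular matrix, fell stepwise. It measured 1.83, 1.74 and 1.71 in control, 0.25, 0.73 and 0.52 in Ph3h and -1.05, -1.01 and -1.30 in Ph24h, again without overlap. The level was 2.39-fold lower at 3 h (log2 fold change -1.26, SE 0.13, adjusted p = 0.000171) and 7.36-fold lower at 24 h (-2.88, SE 0.13, adjusted p = 2.24e-06). Its probe 2 gave -1.16 and -2.52 at the same times.

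Fcrls, a secreted Fc receptor-like scavenger protein that marks microglia in mice, rose and then fell below control. It measured 6.06, 6.07 and 6.16 in control, 7.08, 7.19 and 7.20 in Ph3h and 5.46, 5.51 and 5.57 in Ph24h. The arrays of each group lay close together and apart from the other groups. Relative to the 75th percentile the 3 h level was 2.09 times that of control (log2 fold change 1.06, SE 0.06, adjusted p = 9.73e-06), and at 24 h it was lower (-0.58, SE 0.06, adjusted p = 0.000132). Its unscaled intensity was the same at 3 h as in control, with means of 28280 and 28225 (unscaled log2 fold change 0.01, adjusted p = 0.955), while the median of all genes fell by 0.99 on that scale. The rise at 3 h is thus one relative to the other genes of the array.

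The 2 transcription factors were dim. Sall1, a zinc finger protein needed for microglial identity in the brain, had no array of the 9 with a signal well above background, all 9 values were surrogates, and it has no level, order or test. Mef2c, a MADS-box factor active in microglia and neurons, measured -2.59, -2.49 and -2.38 in control, -2.82, -2.47 and -2.56 in Ph3h and -3.35, -3.48 and -2.42 in Ph24h. Replicate 3 of Ph24h lay among the control values, and the other 2 lay below them. It was not called at 3 h (log2 fold change -0.13, 95% confidence interval -0.75 to 0.50, adjusted p = 0.720) or at 24 h (-0.59, -1.22 to 0.04, adjusted p = 0.0887). Without replicate 3 of Ph24h it was called lower at 24 h (-0.93, adjusted p = 0.000985), and it was also called lower there with quantile normalization (-0.96, adjusted p = 0.0157) and with scaling to the median (-1.10, adjusted p = 0.00425).

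**Figure D3:**
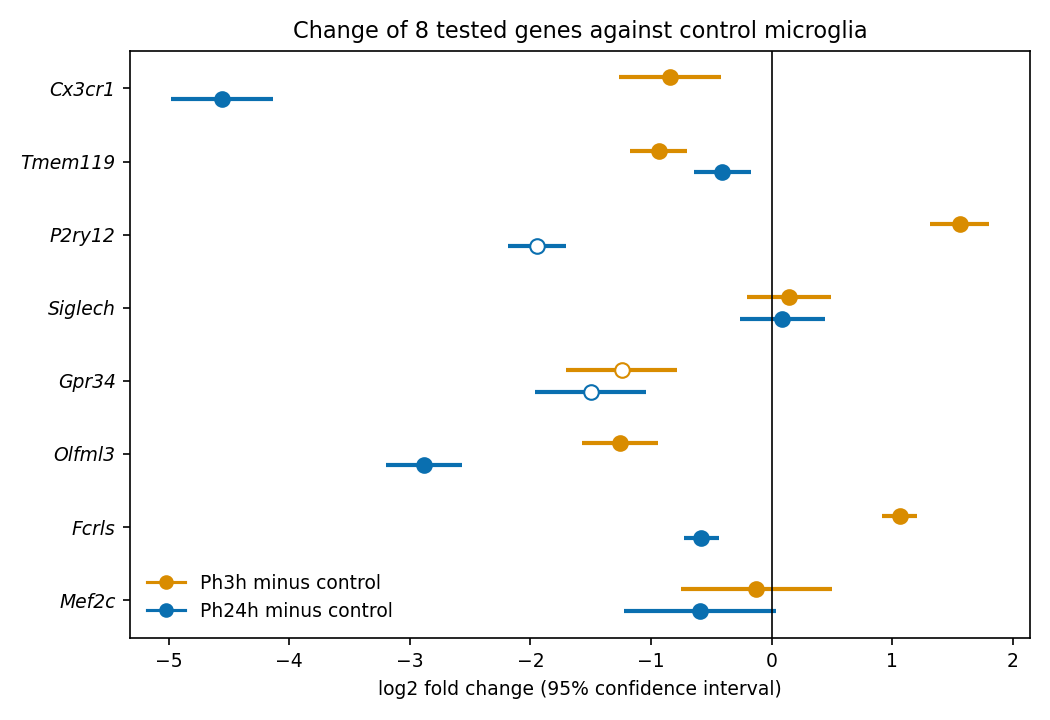
Log2 fold change of the 8 tested genes against control at 3 h and 24 h with 95% confidence intervals; open points have a fed group below background on all 3 arrays, so that their size is not measured. Cx3cr1 lies farthest from 0 at 24 h (-4.56), and P2ry12 and Fcrls lie to the right of 0 at 3 h and to the left at 24 h.

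The direct comparison of Ph24h with Ph3h uses no control array. Here 4 of the 8 genes were called lower at 24 h and 1 higher, against 24.0% lower and 20.3% higher over all genes, and Siglech, Gpr34 and Mef2c were not called. Mef2c (-0.47) was called lower here with scaling to the median (-0.73, adjusted p = 0.0409), within slide 1 alone (-0.77, adjusted p = 0.0228) and without replicate 3 of Ph24h (-0.80, adjusted p = 0.00298). For the 5 called genes the arrays of the 2 times did not overlap, as for 28.3% of all genes below and 28.6% above. Cx3cr1 was 13.1-fold lower at 24 h than at 3 h (log2 fold change -3.71, adjusted p = 5.00e-06), Fcrls 3.12-fold (-1.64, adjusted p = 1.96e-06) and Olfml3 3.07-fold (-1.62, adjusted p = 5.88e-05). Tmem119 was the member that rose between the times, by 1.44-fold (0.53, adjusted p = 0.00420). That rise was not called within slide 1 alone (0.55, adjusted p = 0.0557) or with scaling to the median (0.27, adjusted p = 0.133). The median change of the 8 genes was -1.04, and that of all genes 0.04.

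With the regression on time that the methods describe, 9 of the 12 member probes tested had an adjusted p of the overall F test below 0.05 and an R2 above 0.9. Over all probes 64.2% passed the F test and 38.2% passed both. The 9 include 3 probes of Cx3cr1, of which 2 overlap, and 2 of Olfml3, so they are not separate genes. The 3 that did not pass were Siglech probes 1 and 2 and Mef2c, with R2 of 0.12, 0.60 and 0.43. Among the rest R2 ran from 0.91 (Gpr34) to 0.99 (P2ry12).

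For each called member, the 2 genes with the most similar course over the 9 arrays were found by the root mean square difference in log2 level, each gene set relative to its own control mean. Nearest to Cx3cr1 were Cdhr3 (0.31 log2 units) and Yipf7 (0.42), and nearest to Olfml3 were Bdh2 (0.15) and Plxnc1 (0.22). The chemokine gene Ccl12 (0.07) and the stress-responsive gene Ndrg1 (0.08) followed Fcrls. The cytokine receptor gene Il21r (0.19) and Rrm2, a subunit of ribonucleotide reductase (0.19), followed P2ry12. Tmed8 (0.08) and Zfp260 (0.08) followed Tmem119, and Gm4951 (0.12) and Zfp689 (0.16) followed Gpr34. Gpr34 was at background in both fed groups and P2ry12 at 24 h. The matches to Gpr34 and P2ry12 therefore rest in part on values that measure no level. The members themselves were left out of this search.

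Other genes of the homeostatic signature were read from a list of 28, of which 26 were tested. At 3 h 9 of them rose and 10 fell (all genes 27.9% and 25.9%). At 24 h 5 rose and 15 fell (all genes 29.9% and 33.2%), and the medians were -0.01 and -0.56. Among those that fell was Hpgd, which breaks down prostaglandins (-2.20 at 3 h, and at least 15.1-fold lower at 24 h, where it was not well above background). Rnase4 gave -0.41 and -1.87, and Tgfbr1, the type I TGF-beta receptor, -0.32 and -1.41. Within slide 1 alone both lost the call at 3 h, Rnase4 also without replicate 2 of control or replicate 1 of Ph3h (-0.34 in each case). The 3 probes of Tgfbr1 ran from -0.33 to 0.01 at 3 h, where 2 were called lower. Entpd1, the ectonucleotidase CD39, was not called at 3 h (-0.32) and fell at 24 h (-2.29). It was called lower at 3 h with scaling to the median (-0.56, adjusted p = 0.0274), normexp, only the groups compared in the fit, or without replicate 3 of Ph24h (adjusted p = 0.0469). P2ry13, which lies beside P2ry12 in the genome and in function, rose at 3 h (0.72) and was not well above background at 24 h (-1.34), as P2ry12 did. Rhob, a small GTPase, rose at both times (2.46 and 1.54), and the fructose transporter Slc2a5 rose at 3 h (2.35, 24 h -0.51, not called). Csf1r, which maintains microglia and drives the reporter of these mice, gave 0.11 at 3 h (not called) and 0.36 at 24 h (called), and both signs turned with scaling to the median (-0.14 and -0.15) and without scaling. With quantile normalization Csf1r was called lower at 3 h (-0.23) and not called at 24 h (0.035). The rise of P2ry13 at 3 h lost its call with normexp (0.079, adjusted p = 0.251), with a variance trend (adjusted p = 0.148) and with scaling to macrophage markers (0.18), and had the other sign without scaling (-0.34), when the median of all genes was -0.99.

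**Figure D4:**
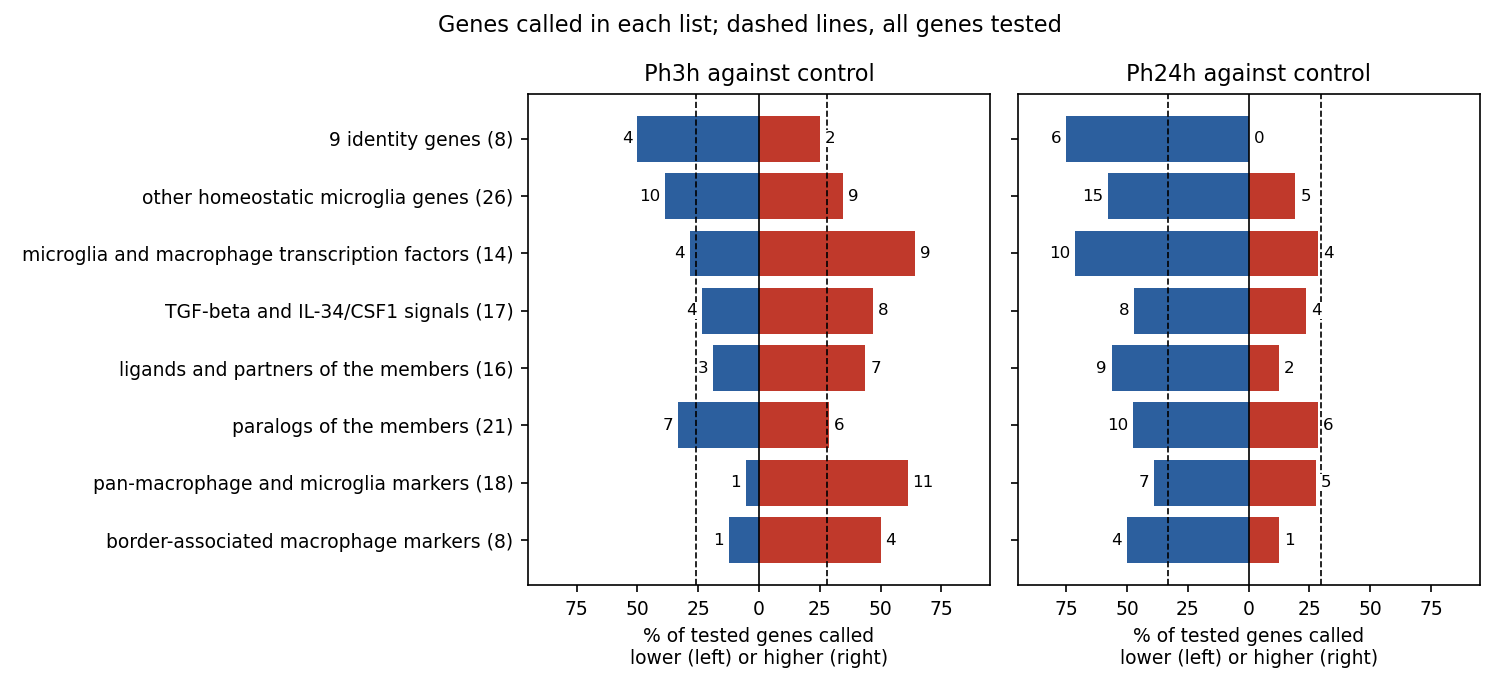
Share of tested genes of each list called lower (blue, left) or higher (red, right) against control at 3 h and 24 h, in percent, with counts at the bar ends, tested genes in parentheses and the shares over all genes as dashed lines. The 9 identity genes have 4 lower and 2 higher at 3 h, and 6 lower and 0 higher at 24 h.

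Of 14 tested transcription factors of microglia and macrophages, 9 rose and 4 fell at 3 h (all genes 27.9% and 25.9%). At 24 h 4 rose and 10 fell (all genes 29.9% and 33.2%), and the medians were 0.33 and -0.56. Maf (-0.52 and -1.63), Irf8 (-0.75 and -0.34) and Ikzf1 (-2.12 and -1.45) fell at both times, and Cebpb (1.86 and 1.51), which is induced in inflammation, rose at both. Smad3, which carries TGF-beta signals (0.97 and -1.09), and Spi1, which encodes PU.1 (0.26 and -0.47), rose at 3 h and fell at 24 h, but at 3 h both had the other sign without scaling, and Spi1 also with scaling to macrophage markers. The rise of Spi1 was not called with scaling to the median (0.016) or within slide 1 alone. At 3 h 2 of the 3 probes of Ikzf1 were called lower, and 1 of the 2 probes of Smad3 was called higher. Of the relatives of Mef2c, Mef2a was not called at 3 h (-0.14, called lower with scaling to the median at -0.38) and rose at 24 h (0.93), and Mef2d rose at 3 h (0.51) and fell at 24 h (-0.42), the rise with the other sign without scaling and with scaling to macrophage markers. The probes of both disagreed at 24 h, where those of Mef2a ran from -1.07 to 0.93 and those of Mef2d from -0.42 to 0.94, and the sign turned for both with the mean over probes (-0.30 and 0.27).

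Of 17 genes of the TGF-beta and CSF1 receptor signals, 8 rose and 4 fell at 3 h (all genes 27.9% and 25.9%). At 24 h 4 rose and 8 fell (all genes 29.9% and 33.2%). The medians were 0.11 and -0.46 (at 24 h -0.07 with bounds). The ligands Tgfb1 (0.45 and -0.21) and Tgfb3 (2.08 and -0.92) and the receptor Tgfbr2 (0.48 and -1.20) rose at 3 h and fell at 24 h. Of the 2 probes of Tgfbr2, 1 was called higher at 3 h and 1 lower at 24 h, where they gave -1.20 and -0.61. Without scaling and with scaling to macrophage markers, the rises of Tgfb1 and Tgfbr2 had the other sign, and with scaling to the median neither was called (adjusted p = 0.129 and 0.0740). The fall of Tgfb1 at 24 h was small and lost its call with quantile normalization (-0.085, adjusted p = 0.249), the percentile over detected probes, normexp, the authors' table, slide 1 alone, or without replicate 1 or 2 of control or replicate 1 or 3 of Ph24h (adjusted p = 0.0517 to 0.0769). Nrros, which holds latent TGF-beta on microglia, fell at both times (-0.63 and -1.27). Smad7, an inhibitor of the pathway, rose at both (2.06 and 0.44), at 24 h with the other sign under scaling to the median and without scaling. Csf1 was not called at 3 h (-0.36, with probes from -0.36 to 0.73) and fell at 24 h (-1.45). At 3 h it was called lower with scaling to the median (-0.61, adjusted p = 0.0184) and in several other settings. Il34 was not called at either time (-0.05 and -0.58), but at 24 h it was called lower with quantile normalization (-1.08, adjusted p = 0.0462), scaling to the median (-1.09, adjusted p = 0.0346), normexp and the authors' table (-1.09, adjusted p = 0.0405).

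Of 16 tested ligands, partners and downstream genes of the members, 7 rose and 3 fell at 3 h (all genes 27.9% and 25.9%). At 24 h 2 rose and 9 fell (all genes 29.9% and 33.2%). The medians were 0.06 and -0.66 (at 24 h -0.10 with bounds). Cx3cl1, the fractalkine that binds CX3CR1, rose at 3 h (0.63) and fell at 24 h (-1.87). The nucleotide receptor P2ry6, which triggers uptake of particles, did the same (0.50 and -1.99), and the ATP-gated channel P2rx7 fell at both times (-1.10 and -1.42). At 24 h the 3 probes of P2rx7 ran from -1.42 to -0.15, and 2 of them were called lower. Pla1a, a phospholipase that makes the lysophosphatidylserine sensed by GPR34, fell at 3 h (-0.70) and rose at 24 h (2.42). The fall was not called within slide 1 alone (adjusted p = 0.103), without replicate 2 of control (adjusted p = 0.0643) or without replicate 1 of Ph3h (adjusted p = 0.0546). Without scaling, the changes of Cx3cl1 and P2ry6 at 3 h had the other sign, that of P2ry6 also with scaling to macrophage markers. Of 21 tested paralogs of the members, 6 rose and 7 fell at 3 h (all genes 27.9% and 25.9%). At 24 h 6 rose and 10 fell (all genes 29.9% and 33.2%). The medians were -0.13 and -0.22 (the latter 0 with bounds). Of the relatives of Sall1 that were tested, Sall2 fell at both times (-1.23 and -0.47) and Sall4, named after its values were seen, rose at both (0.45 and 0.83), with the other sign at both times without scaling and at 3 h with scaling to macrophage markers. The rise of Sall4 at 3 h was not called with scaling to the median (0.20) or without replicate 1 or 2 of control or replicate 1 of Ph3h (0.34 to 0.44). Siglec1 fell at both times (-1.06 and -0.69), though at 3 h only 1 of its 2 probes was called lower. Fcrl5, a relative of Fcrls, rose at both by its brightest probe (1.97 and 2.07), but its other probe gave -0.39 and -1.22. Some genes stand on more than 1 of these lists.

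Markers that other macrophages share are given for comparison. Of 18 general macrophage markers, 11 rose and 1 fell at 3 h (all genes 27.9% and 25.9%). At 24 h 5 rose and 7 fell (all genes 29.9% and 33.2%), and the medians were 0.29 and -0.03. Aif1, which encodes IBA1, rose at 3 h and fell at 24 h (1.35 and -0.73), the integrin gene Itgam rose at both times (1.39 and 1.23), as did Cd14 (2.17 and 2.45), and Fcgr1 was not called at 3 h (0.08) and fell at 24 h (-2.63). The rise of Itgam at 24 h had the other sign without scaling. Of 8 tested markers of border macrophages, 4 rose and 1 fell at 3 h, while 24 h saw 1 up and 4 down, beside the same shares over all genes. Among these, Mrc1, the mannose receptor, gave 1.02 and -1.45, and Pf4 gave 0.24 and 2.07, both with the other sign at 3 h without scaling, and Pf4 also with scaling to the median or to macrophage markers. The 3 h value of Pf4 was not called without any one of the control or Ph3h arrays (adjusted p = 0.0571 to 0.109). The list's summed level was 556 to 659 before feeding, 673 to 707 at 3 h and 274 to 288 at 24 h. Most of it came from Ms4a7, which was not called at 3 h (0.17) and fell at 24 h (-1.25). The part of border macrophages in the members' values was not tested. Oligodendrocyte lineage markers summed to 266 to 326, 420 to 478 and 211 to 245 in these groups, and astrocyte markers to 15.2 to 20.2, 16.7 to 19.0 and 17.7 to 18.04. Replicate 2 of control lay above replicates 1 and 3 for Gfap (-0.94 against -5.47 and -6.43) and Slc1a3 (-2.66 against -6.85 and -6.37). For Slc1a2 it lay between them (-3.57 against -3.18 and -3.92). The part of astrocyte RNA in the control values was not tested. Endothelial markers summed to 8.38 to 11.5, 12.3 to 12.4 and 14.0 to 15.7, and fibroblast markers to 2.11 to 3.38, 6.35 to 7.46 and 8.90 to 9.35. Most of the fibroblast sum after feeding came from Fbln1, at mean log2 levels of -3.82 in control, 2.18 in Ph3h and 2.68 in Ph24h. Of the 7 tested fibroblast markers, 5 were not called at 3 h and 4 were not called at 24 h.

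**Figure D5:**
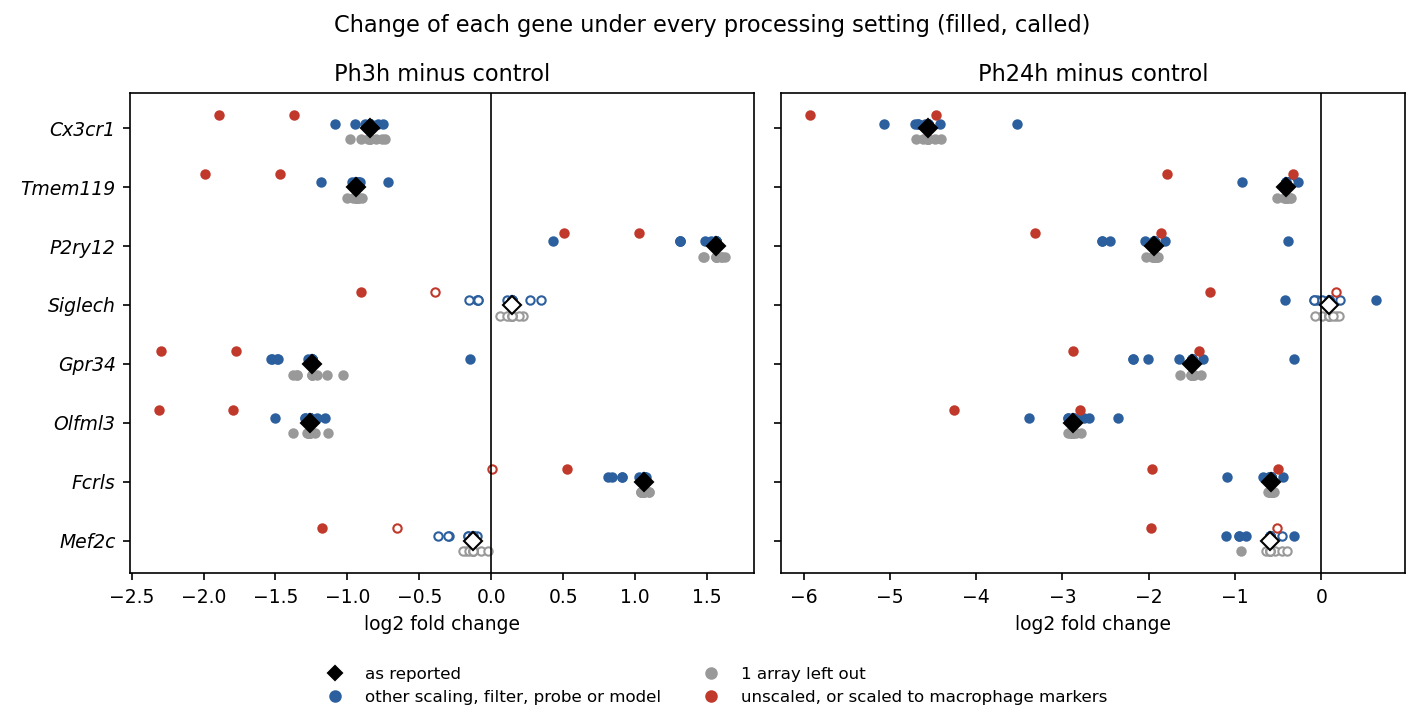
Log2 fold change of the 8 tested genes against control at 3 h and 24 h under each processing setting; the diamond is the value as reported, blue points change a scaling, filter, probe or model, grey points leave out 1 array, red points use no scaling or scale to macrophage markers, and filled points are called. Cx3cr1, Tmem119, Gpr34 (where tested) and Olfml3 stay left of 0 at both times, while Siglech lies on both sides.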

How the data were processed

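RNA of 9 samples, 3 each of control, Ph3h and Ph24h microglia, was hybridised to single-colour Agilent mouse arrays (50 ng RNA labelled per sample). The authors extracted spot intensities with Agilent Feature Extraction 10.7.3.1, per the labels and methods. The deposited scanner files hold the processed signal as an intensity, already background-corrected, and the build mm9. The authors' own value table holds log2 values from GeneSpring. Its column medians lay between -0.07 and 0.10, and its group differences matched quantile-normalized log2 signals (r above 0.999 over probes, slope 1.00), so it is log2, quantile-normalized and centred per probe, and the centre used is not known. It was used as an alternative.

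Here, log2 of the processed signal minus each array's 75th percentile was analysed in limma 3.58.1 (R 4.3.3), with sequences handled in Python 3.11.15. Control spots and spots marked as outliers were left out, 56 probes without a value on every array were dropped, and spots of a probe were averaged. A probe had to be well above background on at least 1 of 9 arrays, and the brightest such probe stood for its gene. The 3 groups entered a single fit, and a gene was called at a Benjamini-Hochberg adjusted p below 0.05 over 24101 genes. The methods' regression on time has 3 times and terms up to the square, and is the same model of 3 means. P-values measure the spread between 3 samples a group, whose number limits the precision. Replicate numbers did not pair the arrays (correlations of deviations -0.06 to 0.04). A bound sets a signal below background to the dimmest one well above it. Of the 14 member probes, 13 had an accession in the RefSeq table, with the same symbol. The fit was tested on simulated data with known changes, whose median size it recovered, though not every changed gene was called. The alternatives tried were other scalings, background correction by normexp with an offset of 50, the authors' table, filters, the mean over probes, blocks, slide 1 alone, pairwise fits and leaving out each array. Scaling to macrophage markers and no scaling were added after seeing the data.

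All members are named. From the other lists the rule named up to 4 called genes with the largest change at 24 h and 2 at 3 h, and 14 genes whatever they did, of which those of other cell types and a few others are given as counts, and 1 is not reported here. The members and lists were chosen with earlier results of these data known.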

Additional observations from a re-analysis of the deposited data

Results flagged for a closer look

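For 5 genes the change from 3 h to 24 h was itself past the threshold in limma's test, so that their departures from control differed between the times. Cx3cr1 was lower by a log2 fold change of -3.71 (3 of 3 arrays below all Ph3h arrays), P2ry12 by -3.50, Fcrls by -1.64 and Olfml3 by -1.62, each with the same 3 of 3 arrays. Tmem119 was higher by 0.53, with all 3 Ph24h arrays above all Ph3h arrays. For P2ry12 and Fcrls the sign against control turned between the times, and for P2ry12 the Ph24h signal was not well above background, so that its size is not measured. Cx3cr1 and Olfml3 moved further from control and Tmem119 moved back toward it.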

How the results depend on the processing

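With the settings listed for processing, apart from no scaling and macrophage-marker scaling, Cx3cr1, Olfml3, P2ry12 and Fcrls kept the direction and the call at both times against control. Gpr34 did so in every setting but the filter on all 3 arrays of a group, where it was not tested and the number called lower was 3 at 3 h and 5 at 24 h. Tmem119 lost its call at 24 h within slide 1 alone. Without scaling, Fcrls lost its call at 3 h (0.0076, adjusted p = 0.955 in limma). The next counts cover the 8 genes and 3 comparisons, where tested, under the listed settings apart from no scaling and macrophage-marker scaling. Of these values 495 stayed on the same side of the threshold in the same direction, 15 changed sign, 12 became called and 3 lost the call. The replicate number as a block left 4 lower and 2 higher at 3 h, with Cx3cr1 at an adjusted p of 0.0196, and it changed no other call of a member. The number called higher at 3 h was 1 without scaling, that at 24 h was 1 with the mean over probes (Siglech, 0.64, adjusted p = 0.0399), and that from 3 h to 24 h was 0 with scaling to the median, within slide 1 alone and without scaling, and 2 with scaling to macrophage markers. Siglech changed sign at 3 h with quantile normalization (-0.093), median scaling (-0.10), normexp (-0.15), the authors' table (-0.092), no scaling (-0.91) and macrophage-marker scaling (-0.39). At 24 h it did so with the same first 4 (-0.087, -0.42, -0.049 and -0.090), without Ph24h replicate 3 (-0.071, with up to 0.20 without another array) and without scaling (-1.29). From 3 h to 24 h it did so with quantile normalization (0.0056), the percentile over detected probes (0.11), normexp (0.10), the authors' table (0.0014), the mean over probes (0.29), without Ph24h replicate 1 (0.056, with down to -0.21 without another array) and with macrophage-marker scaling (0.56). Macrophage-marker scaling also turned Gpr34 (0.36) and Mef2c (0.15) from 3 h to 24 h.

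Scaling moved all genes together: the median of all genes at 3 h and 24 h was -0.18 and -0.50 with median scaling, -0.07 and -0.14 with quantile normalization and -0.99 and -1.37 without scaling. Calls over all genes from 3 h to 24 h went from 5793 lower and 4902 higher to 8503 and 2489 with median scaling and to 4128 and 7218 with the percentile over detected probes. Slide 1 alone gave 4285 and 3569. With no filter 12455 genes were higher at 3 h and 14749 at 24 h. Without scaling 16138 were lower and 1327 higher at 3 h, and 17443 and 1375 at 24 h, and with macrophage-marker scaling 12247 and 2861 at 3 h. Among other genes, Csf1r changed sign at 3 h with quantile normalization (-0.23), median scaling (-0.14), normexp (-0.21), the authors' table (-0.23), no scaling (-0.94) and macrophage-marker scaling (-0.42), and at 24 h with median scaling (-0.15), normexp (-0.0062) and no scaling (-1.01). Without scaling and with macrophage-marker scaling at 3 h, Spi1 was at -0.79 and -0.27, Mef2d at -0.55 and -0.026, Tgfb1 at -0.61 and -0.085, Tgfbr2 at -0.57 and -0.050, P2ry6 at -0.56 and -0.036, Fcgr1 at -0.98 and -0.46 and Pf4 at -0.81 and -0.29. Sall4, named after its values were seen, was at -0.61 and -0.085, and at -0.55 at 24 h without scaling. With median scaling at 3 h Fcgr1 was at -0.17 and Pf4 at -0.0075. Without scaling at 3 h P2ry13 was at -0.34, Smad3 at -0.085, Cx3cl1 at -0.42 and Mrc1 at -0.029, and at 24 h Mef2a was at -0.44, Smad7 at -0.94 and Itgam at -0.14. Smad7 was at -0.069 at 24 h with median scaling. The mean over probes turned Csf1 at 3 h (0.34) and Mef2a (-0.30) and Mef2d (0.27) at 24 h. Il34 at 3 h turned without Control replicate 2 (0.18) and without Ph3h replicate 3 (0.094), with down to -0.25 without another array. Signal over background limits Sall1, Gpr34 and P2ry12 at 24 h. The cause of these changes was not tested.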
